A study of Homo sapiens with 21 samples.

Results

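Interferon-stimulated genes are the genes that cells switch on when they sense interferon, and 46 of the best known were followed across 7 drug-resistant clones of the human cell line Panc-1. The members were the rows of the deposited raw count table whose gene name stands on that list, 46 of 58233 genes in all. Every one of the 46 was found, on 17 chromosomes, and all 46 passed the filter on low counts in the fits of the 7 clone sums and of the 21 libraries. Panc-1 is an established line from a ductal carcinoma of the human pancreas. Cultures of it were taken through rising concentrations of ATUX, SMAP or Sorafenib over 4 months, survivors were cloned by serial dilution, and the clones for sequencing were picked with the help of qRT-PCR. The clones were ATUX8H and ATUX9D from ATUX, SMAP8D, SMAP9C and SMAP6G from SMAP, and Sor6G and Sor9H from Sorafenib, and each stood in 8 µM of its own drug when its 3 libraries of poly-A RNA were made. The design text speaks of PP2A activators, PP2A being a serine/threonine phosphatase, and names the 3 drugs together. Sorafenib is known to inhibit RAF kinases and the receptors of VEGF. The protocol gives IC50 values of 6 to 10 µM after 48 h for ATUX, Sorafenib and a drug written there as SMAP2. Each line is a single clone, clones of a drug may come from the same culture, and untreated Panc-1 was not analysed here, so resistant clones are compared with each other only.

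Libraries held 21022621 to 27691256 counts (median 23026429). Levels are counts scaled to the size of each library (CPM) after TMM, a correction for differences in library composition. The third libraries of both ATUX clones and of Sor9H stood apart from the other libraries of their clone. The chi-square per degree of freedom over genes was 26.7 and 27.4 for the third ATUX8H library, 18.6 and 22.8 for the third ATUX9D library and 12.8 and 14.3 for the third Sor9H library, against 2.19 to 5.18 for the other 15 pairs within a clone. Results that rest on these libraries are given below with and without them. The duct epithelial markers looked at were KRT7, KRT8, KRT18, KRT19, EPCAM, SOX9, MUC1 and CFTR. They summed to 7146 to 13246 CPM in ATUX, 1484 to 3246 CPM in SMAP and 3483 to 5175 CPM in Sorafenib libraries. The keratins KRT8, KRT18 and KRT19 made up most of each sum. EPCAM had only 31 to 193 counts in a library and KRT7 114 to 826, with CFTR at 0 counts throughout. KRT8 alone stood at 4045 to 7094, 767 to 1569 and 1849 to 2904 CPM, whereas MUC1 was highest in SMAP, at 12.2 to 24.1, 26.2 to 41.5 and 15.4 to 21.4 CPM.

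Interferons are secreted proteins that warn neighbouring cells of infection. Type I interferons bind the receptor chains IFNAR1 and IFNAR2, whose kinases JAK1 and TYK2 phosphorylate STAT proteins. STAT2 and IRF9 are parts of the complex ISGF3, which binds interferon-stimulated response elements (ISRE) in promoters. Type II interferon, IFNG, acts through IFNGR1, IFNGR2, JAK1 and JAK2, and its signal reaches gamma-activated sites (GAS) in promoters. The induced proteins sense viral RNA, block the entry, copying or release of viruses, attach the ubiquitin-like protein ISG15 to others, and cut proteins for display to T cells. Many tumours keep a part of these genes on without infection, and carcinoma cells of the pancreas are among them.

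The promoters of the members hold the ISRE more often than promoters at large. RefSeq (GRCh38.p14) gave a promoter window of 250 bases before to 50 after the start for 37 of the 46 members. An ISRE, searched on both strands as GAAA, any 2 bases and GAAA, with overlapping matches counted, lay in 22 of the 37 windows (59.5%), against 3.57% of all 35116 windows of that table. A GAS, searched as TTCNNNGAA on both strands, lay in 9 of the 37 (24.3%), against 7.66% of all windows. The sequences below are those of the members on which the results turn, so that the arrangement of the motif can be compared. Capitals mark ISRE matches, and each sequence runs 5′ to 3′ on the gene's strand over the 150 bases before its start (4 bases longer for IFITM1, whose second match crosses the start). IFITM1 lies at chr11:313890-314043 (+), BST2 at chr19:17405631-17405780 (-), GBP1 at chr1:89065209-89065358 (-), IFIT1 at chr10:89392473-89392622 (+), ISG15 at chr1:1013347-1013496 (+) and STAT2, which has no match in its window, at chr12:56360108-56360257 (-), all in GRCh38.
IFITM1: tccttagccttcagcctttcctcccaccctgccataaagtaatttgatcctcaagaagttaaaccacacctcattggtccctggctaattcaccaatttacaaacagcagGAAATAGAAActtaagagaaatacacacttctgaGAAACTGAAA
BST2: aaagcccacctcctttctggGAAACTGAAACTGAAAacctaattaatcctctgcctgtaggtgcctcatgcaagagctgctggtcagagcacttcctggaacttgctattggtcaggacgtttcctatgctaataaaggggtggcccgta
GBP1: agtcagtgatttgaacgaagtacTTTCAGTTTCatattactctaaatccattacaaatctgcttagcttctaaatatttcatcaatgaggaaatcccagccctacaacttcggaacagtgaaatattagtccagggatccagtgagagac
IFIT1: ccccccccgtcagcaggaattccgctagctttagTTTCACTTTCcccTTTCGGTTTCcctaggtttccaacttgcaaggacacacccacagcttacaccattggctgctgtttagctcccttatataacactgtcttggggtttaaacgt
ISG15: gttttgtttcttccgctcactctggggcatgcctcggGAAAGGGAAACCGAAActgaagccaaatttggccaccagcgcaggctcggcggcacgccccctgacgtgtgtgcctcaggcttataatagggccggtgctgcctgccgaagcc
STAT2: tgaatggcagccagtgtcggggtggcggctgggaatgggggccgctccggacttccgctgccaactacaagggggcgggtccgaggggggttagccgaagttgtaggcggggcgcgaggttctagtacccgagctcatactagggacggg

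BST2 and ISG15 each carried 2 matches that share bases and so form a run of 3 GAAA units, whereas IFIT1 carried 2 separate matches and GBP1 a single one, all on the opposite strand. Shorter stretches of 30 bases show the match nearest the 5′ end in other members with large differences between clones: IFI44 at chr1:78649761-78649790 (+), HERC5 at chr4:88456984-88457013 (+), IFIT3 at chr10:89327831-89327860 (+), SAMD9 at chr7:93118096-93118125 (-), PARP14 at chr3:122680800-122680829 (+), DTX3L at chr3:122564322-122564351 (+) and DDX60 at chr4:168318821-168318850 (-).
IFI44: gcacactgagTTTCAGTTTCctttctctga
HERC5: ctcattacagTTTCCTTTTCCTTTTCgatt
IFIT3: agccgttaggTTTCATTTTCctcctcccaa
SAMD9: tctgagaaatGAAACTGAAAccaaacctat
PARP14: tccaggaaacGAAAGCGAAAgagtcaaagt
DTX3L: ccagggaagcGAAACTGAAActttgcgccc
DDX60: gtgctgaaggGAAACTGAAAcctaagtgct

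The results are also given by whether the window holds an ISRE match. Between ATUX and SMAP clones, 15 of the 22 with a match and 8 of the 15 without were called lower in ATUX, with median log2 differences of -1.39 and -1.63. SMAP8D was the clone of the highest level for 16 of the 22 and for 8 of the 15. A match is a description of the letters and was not tested as a binding site.

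The 46 genes together took 0.111 to 0.143% of all counts in ATUX libraries, 0.142 to 0.173% in Sorafenib libraries and 0.267 to 0.332% in SMAP libraries, so that each SMAP library lay above every other library. In a clonal line a lower level can mean fewer cells that express a gene or less RNA per cell, and bulk counts cannot tell these apart. Per kilobase of the deposited gene length, the mean level over the 7 clones was led by IFITM3 at 359 CPM per kb, followed by IFITM2 at 40.4, ISG15 at 32.3 and IFI6 at 24.3 CPM per kb. The lowest were RSAD2 at 0.212, IFI27 at 0.105 and IFI44L at 0.0401 CPM per kb. By clone means, an SMAP clone was highest for 40 members, 30 of them in SMAP8D, 6 in SMAP9C and 4 in SMAP6G, while Sor6G and Sor9H were each highest for 3 and the ATUX clones for 0. Over all 13509 genes compared in the same way SMAP8D was highest for 8.62%, SMAP9C for 16% and SMAP6G for 8.21%. Sor6G was highest for 15.6% of them, Sor9H for 20.9%, ATUX8H for 11.9% and ATUX9D for 18.8%. Of the SMAP clones, only SMAP8D thus stood clearly above its share of all genes. The lowest clone was ATUX9D for 20 members, ATUX8H for 16, Sor9H for 7, Sor6G for 2 and SMAP6G for 1. Over the same genes ATUX9D was lowest for 16.7%, ATUX8H for 11.7%, Sor9H for 20.2%, Sor6G for 16.4% and SMAP6G for 9.04%.

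**Figure D1:**
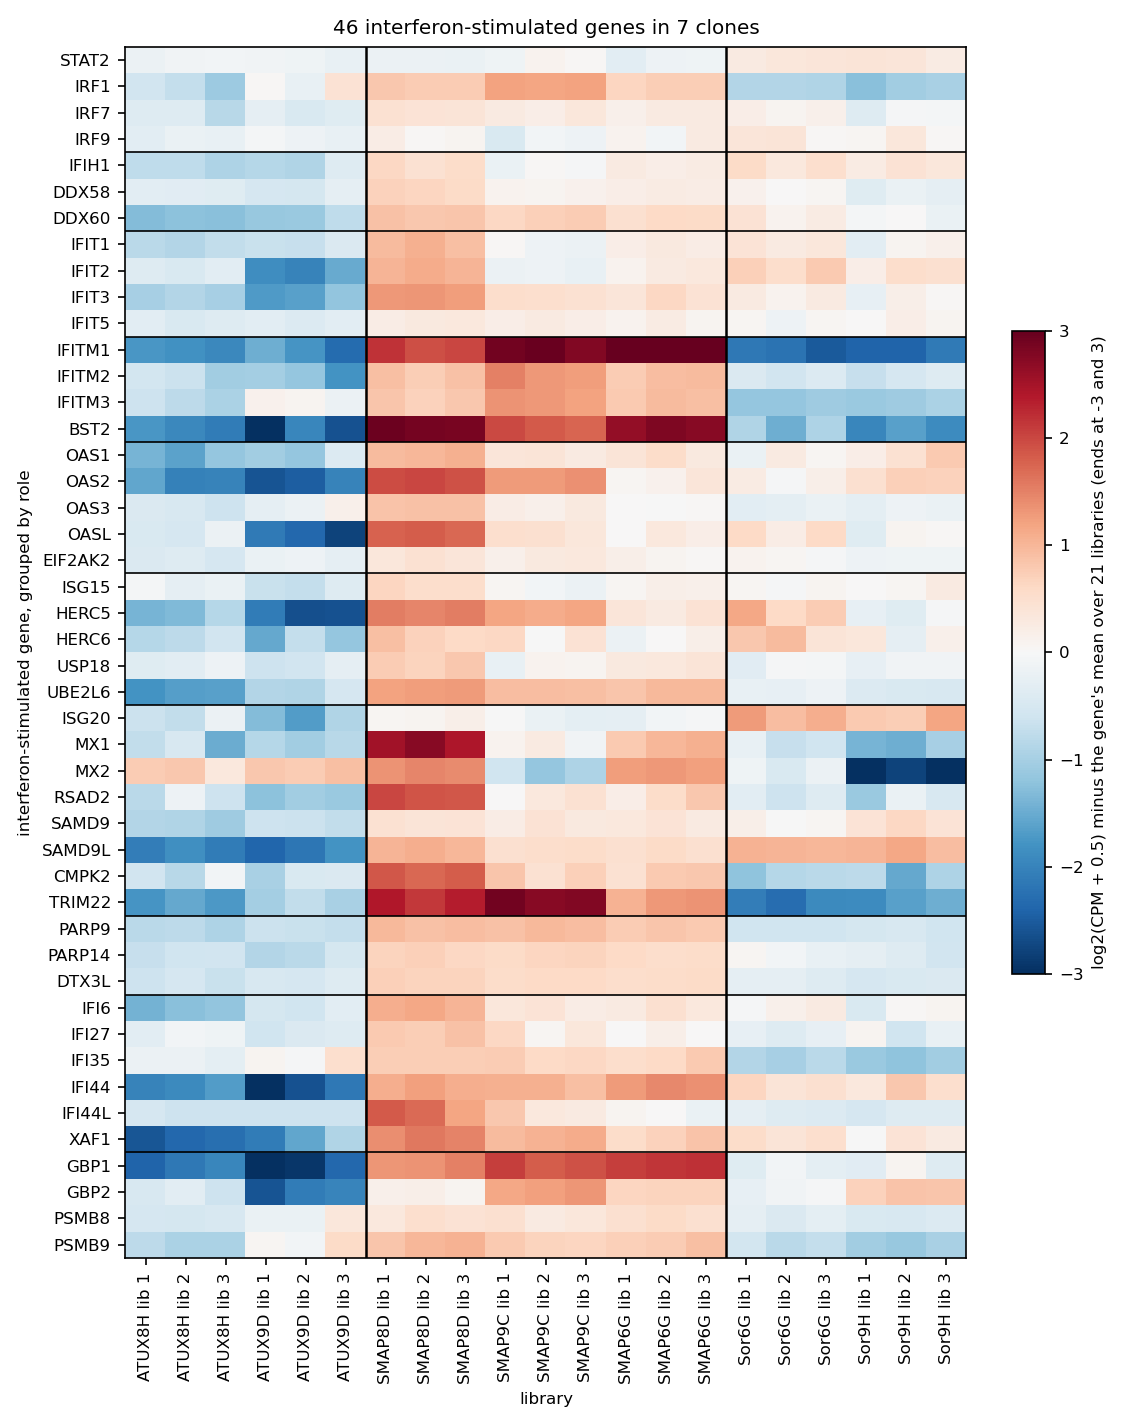
Level of each of the 46 members (rows) in each of the 21 libraries (columns, grouped by clone), as log2(CPM + 0.5) minus the gene's mean over libraries, with colours ending at -3 and 3. The 9 SMAP columns carry most of the high values and the 6 ATUX columns most of the low ones, and SMAP8D is the highest clone for 30 rows.

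Between the ATUX and SMAP clones, the question is how lines grown out under either of these agents differ in interferon-stimulated genes. The ATUX clones had the lower level for 45 of the 46 members. In the edgeR quasi-likelihood fit of clone sums, 27 members were called lower in ATUX and 0 higher (adjusted p below 0.05), where 5.06% of all 18613 genes tested were called lower and 5.27% higher (10.3% in either direction). All 6 ATUX libraries lay below all 9 SMAP libraries for 38 members, against 10.7% of all genes. The median log2 difference of the members was -1.56, and that of all genes was 0.02. By role, the calls took in all 4 membrane restriction factors, all 3 PARP and DTX3L genes, 5 of 6 IFI genes and XAF1, 4 of 8 MX and other effectors, 3 of 5 genes of the ISG15 system, 2 of 3 RNA helicases, 2 of 4 IFIT genes, 2 of 5 enzymes that respond to double-stranded RNA, 1 of 4 signal and transcription factors and 1 of 4 guanylate-binding and immunoproteasome genes. The count was 30 without the third ATUX libraries and 27 without the third Sor9H library. Leaving out a whole clone gave 15 to 22 calls, with 15 without SMAP9C, 16 without SMAP8D and 17 without ATUX8H, and 13 of the 27 genes were called under all 15 alternatives.

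Between the ATUX and Sorafenib clones fewer members differed. The same fit called 15 members lower in ATUX and 1, IFI35, higher, where 12.5% of all genes were lower and 13.3% higher (25.8% in either direction). The 6 ATUX libraries lay below the 6 Sorafenib libraries for 24 members (20.5% of all genes) and above them for 2 (19.2%). The median log2 difference was -0.51, beside 0.01 for all genes. The lower members were SAMD9L, IFI44, OAS2, GBP1, XAF1, HERC5, HERC6, ISG20, OAS1, IFIT3, DDX60, IFIH1, SAMD9, STAT2 and IFIT5. The total was 18 without the third ATUX libraries, 17 without the third Sor9H library, and as low as 8 when either Sor6G or Sor9H was left out. DDX60, GBP1, IFI44, ISG20, SAMD9 and SAMD9L were called under all 15 alternatives.

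Between the SMAP and Sorafenib clones, 18 members were called higher in SMAP and 2, ISG20 and STAT2, lower, where 16.8% of all genes were higher and 17.7% lower (34.5% in either direction). The libraries did not overlap for 23 members higher in SMAP (20.5% of all genes) and 2 lower (20.9%). The median log2 difference was 0.72, beside 0.01 for all genes. The higher members included all 4 membrane restriction factors, all 3 PARP and DTX3L genes and 3 of 4 guanylate-binding and immunoproteasome genes, but 0 of 4 IFIT genes and 0 of 5 enzymes that respond to double-stranded RNA. The total was 20 without the third ATUX libraries and also without the third Sor9H library. It was 11 without Sor9H, and 11 of the 18 higher calls were made under all 15 alternatives. The 3 comparisons share their clones and so are not independent of each other.

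**Figure D2:**
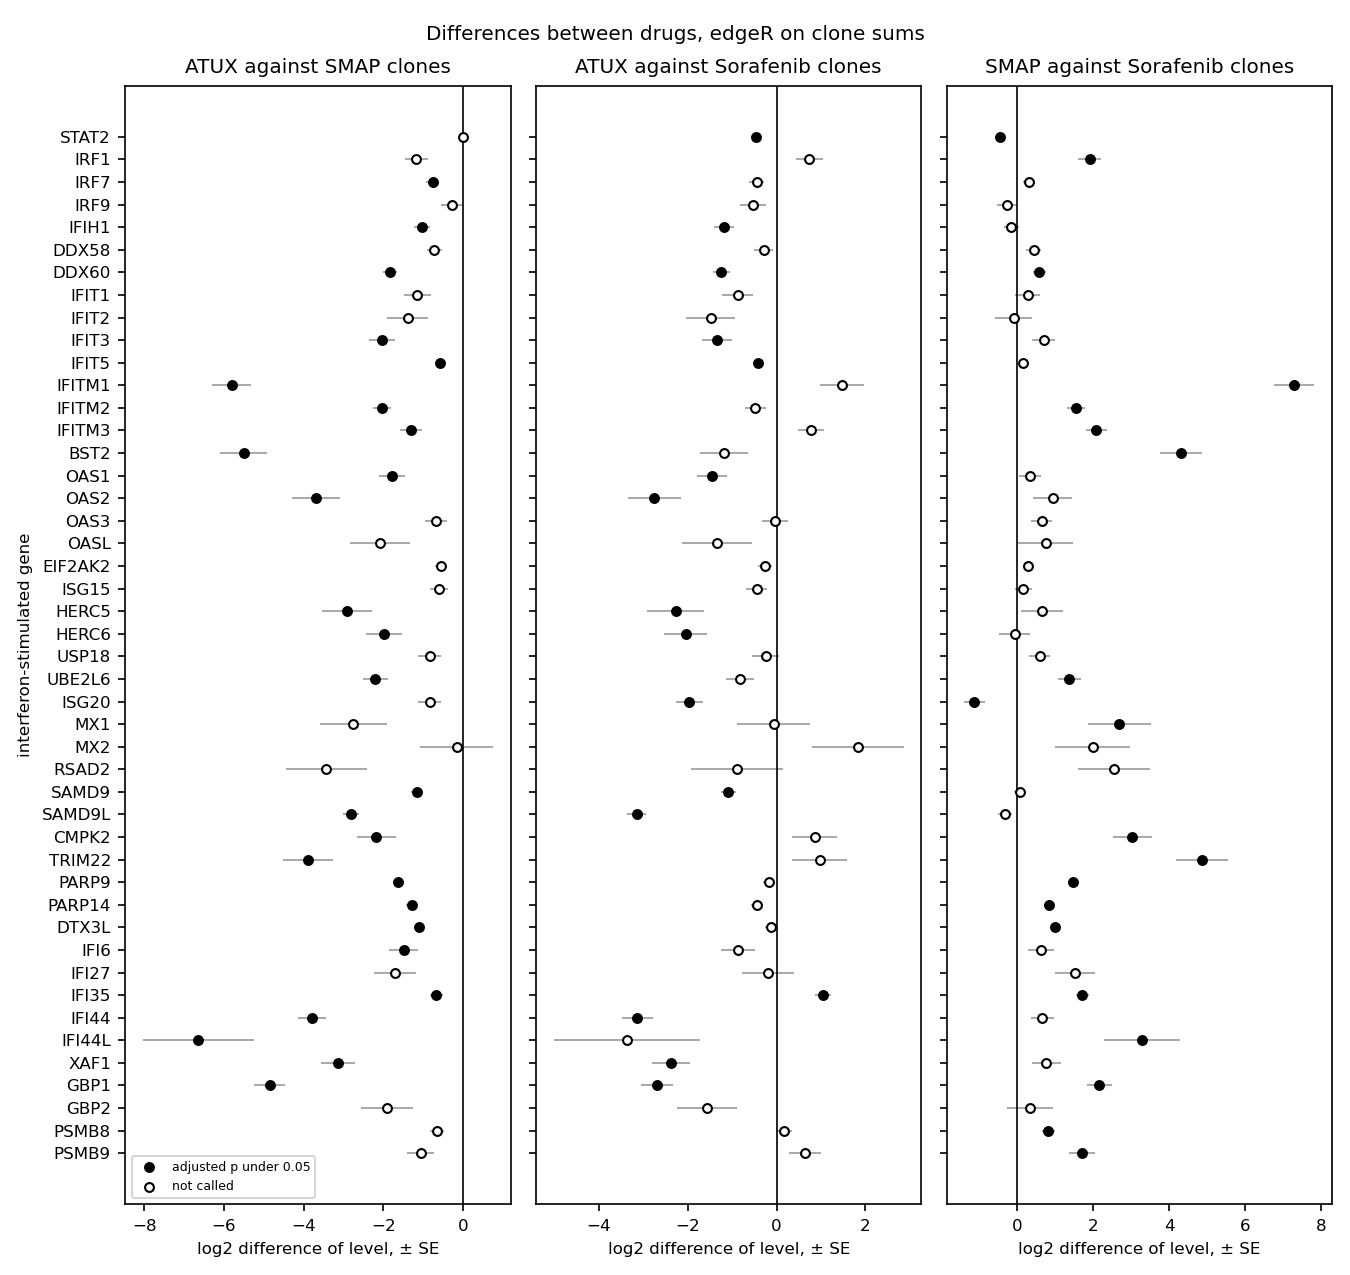
Log2 difference ± SE of the 46 members in the 3 drug comparisons (one panel each), from the edgeR fit of 7 clone sums; filled points have an adjusted p below 0.05. In the ATUX against SMAP panel 27 filled points lie below 0 and 0 above, while in the SMAP against Sorafenib panel 18 lie above 0 and 2 below.

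The membrane restriction factors IFITM1 and BST2 had the largest log2 differences between ATUX and SMAP among the called members with a mean of at least 1 CPM. Levels over the libraries of a drug are given as the lowest, the median and the highest library. IFITM1, which keeps enveloped viruses from fusing at the cell surface, stood at 0.135, 0.405 and 0.63 CPM in the 6 ATUX libraries, at 11.3, 22.8 and 35 CPM in the 9 SMAP libraries and at 0.0409, 0.134 and 0.22 CPM in the 6 Sorafenib libraries. It was near the floor of detection in both other drug groups, and each SMAP library lay far above all of theirs. The log2 difference was -5.80 ± 0.49 (SE, edgeR adjusted p = 0.00619) for ATUX against SMAP and 7.28 ± 0.54 (SE, edgeR adjusted p = 7.4e-04) for SMAP against Sorafenib. BST2 (tetherin), which holds budding virus particles on the cell, stood at 0.042, 0.782 and 1.07 CPM in ATUX, at 17, 33.9 and 39.5 CPM in SMAP and at 0.855, 1.29 and 2.28 CPM in Sorafenib libraries. SMAP libraries again lay above all others without overlap, with a log2 difference of -5.50 ± 0.59 (SE, edgeR adjusted p = 0.0087) against ATUX, a 45.3-fold difference, and 4.32 ± 0.55 (SE, edgeR adjusted p = 0.00302) over Sorafenib. Both calls of each gene were made under all 15 alternatives.

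The endosomal members of the same family were expressed in all clones. IFITM2 stood at 14.2, 24.3 and 34.3 CPM in ATUX, at 84.1, 95.8 and 145 CPM in SMAP and at 31.2, 36.4 and 38.7 CPM in Sorafenib libraries, and IFITM3, the most abundant member per length, at 206, 304 and 436 CPM in ATUX, at 646, 744 and 1019 CPM in SMAP and at 177, 186 and 207 CPM in Sorafenib libraries. SMAP libraries were above all others for both, while ATUX and Sorafenib libraries overlapped. The log2 differences for ATUX against SMAP were -2.02 ± 0.23 (SE, edgeR adjusted p = 0.00895) for IFITM2 and -1.30 ± 0.27 (SE, edgeR adjusted p = 0.0336) for IFITM3, and those for SMAP against Sorafenib 1.54 ± 0.23 (adjusted p = 0.00418) and 2.07 ± 0.28 (adjusted p = 0.00345). The ATUX against SMAP call of IFITM3 was lost without ATUX8H, SMAP8D, SMAP9C, SMAP6G, Sor6G or Sor9H (edgeR adjusted p 0.0587 to 0.0892, within 2.81e-07 to 0.0892 over 15 alternatives). None of the 4 was called between ATUX and Sorafenib, with log2 differences of 1.48 ± 0.50 (adjusted p = 0.0691) for IFITM1, -0.48 ± 0.24 (adjusted p = 0.169) for IFITM2, 0.78 ± 0.29 (adjusted p = 0.0906) for IFITM3 and -1.18 ± 0.53 (adjusted p = 0.146) for BST2. In a GENCODE v29 annotation of the same build, 32.5% of the exon bases of IFITM1 and 22.7% of those of IFITM2 are shared between these genes on the same strand, so reads there could be split or dropped.

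Guanylate-binding proteins are large GTPases that attack the vacuoles of microbes, and PSMB8 and PSMB9 are catalytic subunits of the immunoproteasome. GBP1 stood at 0.378, 1.05 and 1.57 CPM in ATUX, at 19.9, 29.9 and 36.2 CPM in SMAP and at 5.67, 6.02 and 8.01 CPM in Sorafenib libraries. The 3 drug groups did not overlap, in the order ATUX, Sorafenib, SMAP. The log2 difference was -4.85 ± 0.39 (SE, edgeR adjusted p = 0.00619) for ATUX against SMAP, -2.69 ± 0.37 (SE, edgeR adjusted p = 0.00581) for ATUX against Sorafenib and 2.16 ± 0.34 (SE, edgeR adjusted p = 0.0050) for SMAP against Sorafenib, all called under every one of the 15 alternatives. GBP2 stood at 1.51, 4.95 and 9.14 CPM in ATUX, at 12.3, 18.5 and 29.7 CPM in SMAP and at 9.72, 15.1 and 21.4 CPM in Sorafenib libraries and was called in none of the 3, with -1.91 ± 0.65 (adjusted p = 0.112) for ATUX against SMAP. PSMB8 and PSMB9 were highest in SMAP and were called over Sorafenib, at 0.82 ± 0.17 (SE, edgeR adjusted p = 0.0128) and 1.70 ± 0.34 (SE, edgeR adjusted p = 0.0121), but not over ATUX, where the ATUX minus SMAP differences were -0.64 ± 0.17 (adjusted p = 0.0592) and -1.06 ± 0.33 (adjusted p = 0.0941). The PSMB8 call was lost without Sor6G or Sor9H (edgeR adjusted p 0.0526 to 0.0834, within 4.58e-07 to 0.0834 over 15 alternatives). The PSMB9 call was lost without Sor9H (edgeR adjusted p 0.0871, within 1.7e-07 to 0.0871 over 15 alternatives).

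TRIM22, a ubiquitin ligase that represses viral transcription, stood at 0.725, 1.25 and 2.0 CPM in ATUX, at 8.07, 20.8 and 30.2 CPM in SMAP and at 0.357, 0.622 and 1.01 CPM in Sorafenib libraries. All SMAP libraries lay above all others, and the groups of ATUX and Sorafenib overlapped. The log2 difference was -3.89 ± 0.64 (SE, edgeR adjusted p = 0.0184) for ATUX against SMAP and 4.86 ± 0.67 (SE, edgeR adjusted p = 0.00374) for SMAP against Sorafenib. The first of these calls was lost without ATUX8H, SMAP8D or SMAP9C (edgeR adjusted p 0.0502 to 0.0603, within 1.39e-11 to 0.0603 over 15 alternatives). CMPK2, a mitochondrial nucleotide kinase whose gene lies beside RSAD2, stood at 0.504, 0.868 and 1.34 CPM in ATUX, at 2.19, 2.94 and 6.67 CPM in SMAP and at 0.176, 0.554 and 0.63 CPM in Sorafenib libraries, with -2.17 ± 0.49 (SE, edgeR adjusted p = 0.0395) for ATUX against SMAP and 3.02 ± 0.51 (SE, edgeR adjusted p = 0.00648) for SMAP against Sorafenib. The call against ATUX was lost without ATUX8H, ATUX9D, SMAP8D, SMAP9C, Sor6G or Sor9H (edgeR adjusted p 0.0515 to 0.133, within 9.58e-06 to 0.133 over 15 alternatives). The call over Sorafenib was lost without Sor9H (edgeR adjusted p 0.0533, within 4.81e-08 to 0.0533 over 15 alternatives). RSAD2 (viperin), which makes a chain-terminating nucleotide, was low everywhere, at 0, 0.124 and 0.558 CPM in ATUX, at 0.687, 1.23 and 4.26 CPM in SMAP and at 0.045, 0.38 and 0.528 CPM in Sorafenib libraries. It was called in none of the 3 comparisons, although its ATUX and SMAP libraries did not overlap (-3.43 ± 1.02 (adjusted p = 0.0818) for ATUX against SMAP).

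MX1 and MX2 are dynamin-like GTPases that block viral replication complexes and the nuclear entry of viral genomes. MX1 stood at 0.896, 1.69 and 2.32 CPM in ATUX, at 3.16, 7.35 and 25.3 CPM in SMAP and at 0.924, 1.68 and 2.88 CPM in Sorafenib libraries, higher in every SMAP library than in any other. Its log2 difference was 2.68 ± 0.83 (SE, edgeR adjusted p = 0.0468) for SMAP against Sorafenib, called, and -2.75 ± 0.83 (SE, edgeR adjusted p = 0.0852) for ATUX against SMAP, not called. The SMAP against Sorafenib call was lost with no filter on low counts (adjusted p = 0.123) and without ATUX8H, ATUX9D, SMAP8D, SMAP6G, Sor6G or Sor9H (edgeR adjusted p 0.0585 to 0.222, within 5.01e-05 to 0.222 over 15 alternatives). MX2 stood at 24.5, 34.1 and 36.9 CPM in ATUX, at 8.54, 47.7 and 55.4 CPM in SMAP and at 1.89, 8.24 and 17.8 CPM in Sorafenib libraries and was called in none of the 3, and the clones of a drug differed widely, as set out below. SAMD9 and SAMD9L, which restrict poxviruses and slow growth, were low in ATUX alone. SAMD9L stood at 6.3, 7.87 and 9.73 CPM in ATUX, at 49.2, 51.3 and 74.9 CPM in SMAP and at 66.7, 71.8 and 79.1 CPM in Sorafenib libraries, so that ATUX libraries lay below all others, with -2.81 ± 0.21 (SE, edgeR adjusted p = 0.0045) for ATUX against SMAP, -3.15 ± 0.22 (SE, edgeR adjusted p = 0.00152) for ATUX against Sorafenib and -0.33 ± 0.18 (adjusted p = 0.196) for SMAP against Sorafenib. SAMD9 gave -1.15 ± 0.16 (adjusted p = 0.0123), -1.09 ± 0.17 (adjusted p = 0.0078) and 0.05 ± 0.15 (adjusted p = 0.81) in the same order. The ATUX calls of both genes were made under all 15 alternatives. ISG20, a nuclease that degrades single-stranded RNA, was highest in Sorafenib, at 2.24, 4.45 and 7.26 CPM in ATUX, at 6.57, 7.98 and 9.4 CPM in SMAP and at 13.9, 17 and 20.7 CPM in Sorafenib libraries. It was called lower there in ATUX, at -1.96 ± 0.31 (SE, edgeR adjusted p = 0.00802), and in SMAP, at -1.13 ± 0.27 (SE, edgeR adjusted p = 0.0194). The SMAP call was lost without SMAP9C, SMAP6G, Sor6G or Sor9H (edgeR adjusted p 0.0546 to 0.104, within 5.9e-06 to 0.104 over 15 alternatives).

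**Figure D3:**
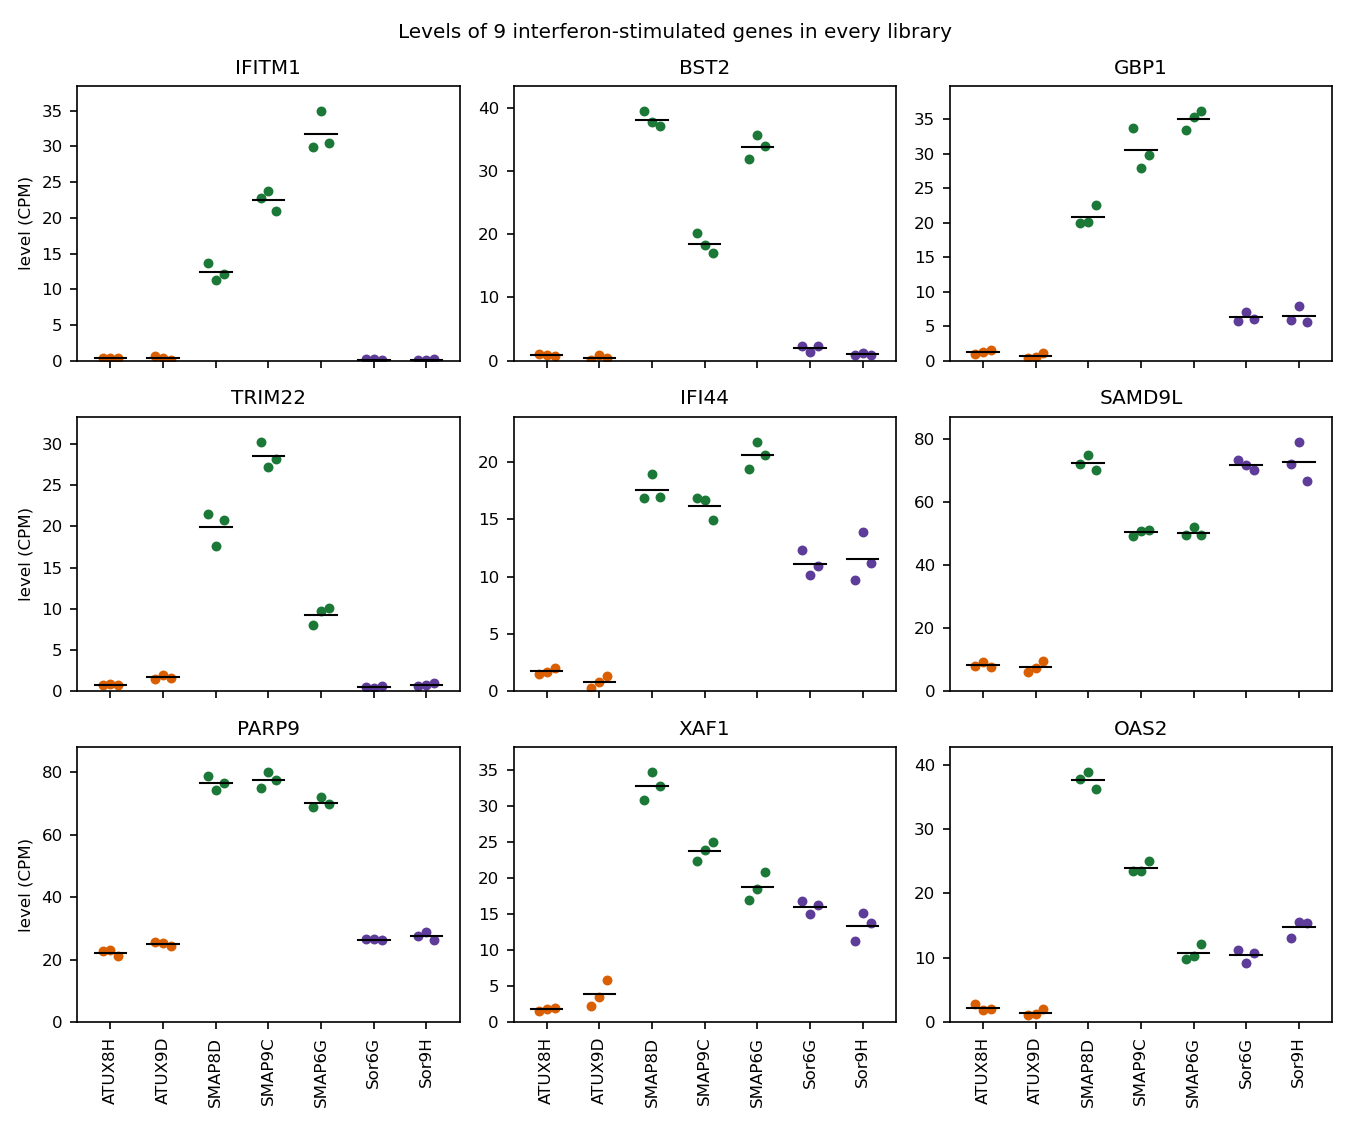
CPM of IFITM1, BST2, GBP1, TRIM22, IFI44, SAMD9L, PARP9, XAF1 and OAS2 in each library (points, by clone), with a line at each clone's mean. The SMAP libraries lie above all ATUX libraries in each panel, and for IFITM1, BST2, TRIM22 and PARP9 the Sorafenib libraries lie near the ATUX level, while for SAMD9L, IFI44 and XAF1 they lie nearer the SMAP level and for OAS2 they overlap the SMAP libraries.

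Among the IFI genes, IFI44, which is known to bind FKBP5 and to restrain growth, stood at 0.336, 1.44 and 2.06 CPM in ATUX, at 14.9, 17 and 21.8 CPM in SMAP and at 9.68, 11.1 and 13.9 CPM in Sorafenib libraries. ATUX libraries lay below all others, and SMAP libraries above all Sorafenib libraries. The log2 difference was -3.79 ± 0.35 (SE, edgeR adjusted p = 0.00659) for ATUX against SMAP and -3.13 ± 0.35 (SE, edgeR adjusted p = 0.00379) for ATUX against Sorafenib, both called under every one of the 15 alternatives, and 0.65 ± 0.30 (adjusted p = 0.133) for SMAP against Sorafenib. Its neighbour IFI44L had 1 count in all 6 ATUX libraries together, 13 in the 6 Sorafenib libraries and 191 in the 9 SMAP libraries. Per depth, the ratio of SMAP to ATUX was 129.7 with a 95% counting interval of 23 to 5151, which covers counting error only. XAF1, which opposes the apoptosis inhibitor XIAP, stood at 1.49, 2.12 and 5.83 CPM in ATUX, at 16.9, 23.8 and 34.7 CPM in SMAP and at 11.2, 15.1 and 16.8 CPM in Sorafenib libraries, with ATUX below all others. Its log2 difference was -3.14 ± 0.43 (SE, edgeR adjusted p = 0.0123) against SMAP and -2.38 ± 0.43 (SE, edgeR adjusted p = 0.0124) against Sorafenib. The latter call was lost without Sor6G (edgeR adjusted p 0.0508, within 1.22e-07 to 0.0508 over 15 alternatives). Opposite-strand genes cover 38.3% of the exon bases of XAF1, and the strand setting of the counting is not given in the sources used here.

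IFI35 stood at 25, 28.7 and 44.2 CPM in ATUX, at 44.8, 51.4 and 53 CPM in SMAP and at 13, 15 and 17.4 CPM in Sorafenib libraries, so that the order was Sorafenib, ATUX, SMAP with no overlap. It was the one member called higher in ATUX than in Sorafenib, at 1.04 ± 0.18 (SE, edgeR adjusted p = 0.00967), and was lower than in SMAP, at -0.66 ± 0.16 (SE, edgeR adjusted p = 0.0488). The call over Sorafenib was lost without Sor9H (edgeR adjusted p 0.063, within 4.31e-08 to 0.063 over 15 alternatives). The IFI35 call against SMAP was lost without ATUX8H, SMAP8D, SMAP9C, SMAP6G, Sor6G or Sor9H (edgeR adjusted p 0.0651 to 0.126, within 6.21e-06 to 0.126 over 15 alternatives). IFI6, a mitochondrial and endoplasmic reticulum protein that opposes apoptosis, stood at 6.65, 10.04 and 15.1 CPM in ATUX, at 22, 25.3 and 42.4 CPM in SMAP and at 13.5, 19.4 and 22.7 CPM in Sorafenib libraries and was called only between ATUX and SMAP, at -1.49 ± 0.36 (SE, edgeR adjusted p = 0.0488). The call was lost without ATUX8H, SMAP8D, SMAP9C, SMAP6G, Sor6G or Sor9H (edgeR adjusted p 0.0649 to 0.122, within 3.2e-06 to 0.122 over 15 alternatives). IFI27 reached at most 1.13 CPM in a library and was called in none of the 3.

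The OAS enzymes make the oligoadenylates that switch on RNase L, OASL binds RNA without that activity, and EIF2AK2 (PKR) is a kinase that stops translation. OAS2 stood at 1.13, 1.95 and 2.86 CPM in ATUX, at 9.81, 23.5 and 38.8 CPM in SMAP and at 9.19, 12.2 and 15.6 CPM in Sorafenib libraries, with every ATUX library below every other. The log2 difference was -3.68 ± 0.60 (SE, edgeR adjusted p = 0.0182) for ATUX against SMAP and -2.75 ± 0.59 (SE, edgeR adjusted p = 0.0201) for ATUX against Sorafenib. The former call was lost without ATUX8H, ATUX9D or SMAP9C (edgeR adjusted p 0.0546 to 0.0733, within 9.5e-12 to 0.0733 over 15 alternatives). The latter was lost without ATUX9D, Sor6G or Sor9H (edgeR adjusted p 0.0539 to 0.0932, within 8.29e-07 to 0.0932 over 15 alternatives). OAS1 showed the same order at 3.74, 5.2 and 9.15 CPM in ATUX, at 14.9, 16.2 and 26.2 CPM in SMAP and at 10.6, 14.7 and 21.5 CPM in Sorafenib libraries, with -1.78 ± 0.32 (adjusted p = 0.022) and -1.45 ± 0.33 (adjusted p = 0.0238). The OAS1 call against SMAP was lost without ATUX8H, SMAP8D or SMAP9C (edgeR adjusted p 0.0504 to 0.067, within 2.37e-07 to 0.067 over 15 alternatives). That against Sorafenib was lost without ATUX8H or Sor9H (edgeR adjusted p 0.0725 to 0.11, within 3.81e-06 to 0.11 over 15 alternatives). OAS3, OASL and EIF2AK2 were called in none of the 3, with ATUX minus SMAP differences of -0.68 ± 0.28 (adjusted p = 0.163), -2.08 ± 0.77 (adjusted p = 0.133) and -0.54 ± 0.14 (adjusted p = 0.061).

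In the ISG15 system, UBE2L6, HERC5 and HERC6 were called between ATUX and SMAP, and USP18 and ISG15 itself were not. ISG15 stood at 17.8, 23.4 and 28.2 CPM in ATUX, at 26.2, 33 and 46.8 CPM in SMAP and at 28.9, 30.8 and 35.9 CPM in Sorafenib libraries, with ATUX and SMAP overlapping, and gave -0.60 ± 0.22 (SE, edgeR adjusted p = 0.134) for ATUX against SMAP, not called. USP18, which removes ISG15 and blocks signalling at IFNAR2, stood at 3.28, 4.11 and 4.75 CPM in ATUX, at 4.51, 6.8 and 9.69 CPM in SMAP and at 4.14, 4.88 and 5.22 CPM in Sorafenib libraries and was not called in any of the 3 (-0.83 ± 0.29 (adjusted p = 0.115) for ATUX against SMAP). UBE2L6, the conjugating enzyme, stood at 10.5, 15.7 and 26.1 CPM in ATUX, at 66.5, 74 and 90.9 CPM in SMAP and at 26.7, 29.5 and 33.7 CPM in Sorafenib libraries. All 3 groups were apart, with -2.20 ± 0.31 (SE, edgeR adjusted p = 0.0133) for ATUX against SMAP and 1.36 ± 0.30 (SE, edgeR adjusted p = 0.0151) for SMAP against Sorafenib. The UBE2L6 call over Sorafenib was lost without Sor6G or Sor9H (edgeR adjusted p 0.0629 to 0.10, within 1.89e-07 to 0.10 over 15 alternatives). HERC5, the main human ISG15 ligase, stood at 1.46, 3.27 and 6.27 CPM in ATUX, at 14.4, 27.2 and 35.1 CPM in SMAP and at 9.06, 14.9 and 27.1 CPM in Sorafenib libraries. ATUX libraries were below all others, at -2.92 ± 0.63 (SE, edgeR adjusted p = 0.0365) against SMAP and -2.27 ± 0.64 (SE, edgeR adjusted p = 0.0437) against Sorafenib. The call against SMAP was lost with no filter on low counts and without ATUX9D, SMAP8D, SMAP9C, Sor6G or Sor9H (edgeR adjusted p 0.0538 to 0.108, within 9.29e-07 to 0.108 over 15 alternatives). The call against Sorafenib was lost with no filter on low counts (adjusted p = 0.126) and without ATUX9D, SMAP8D, SMAP9C, Sor6G or Sor9H (edgeR adjusted p 0.0587 to 0.179, within 1.86e-05 to 0.179 over 15 alternatives). HERC6, which takes that role in mice, gave -1.97 ± 0.46 (adjusted p = 0.0427) and -2.05 ± 0.48 (adjusted p = 0.025). The call against SMAP was lost in the limma-voom fit with clones as a random effect and without ATUX8H, ATUX9D, SMAP8D, SMAP9C, Sor6G or Sor9H (edgeR adjusted p 0.0586 to 0.15, within 2.22e-05 to 0.15 over 15 alternatives). The call against Sorafenib was lost without ATUX9D, Sor6G or Sor9H (edgeR adjusted p 0.0519 to 0.107, within 1.68e-05 to 0.107 over 15 alternatives).

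IFIT proteins bind viral RNA and keep it from being translated. IFIT3, which stabilises IFIT1, stood at 10.8, 16.7 and 19.2 CPM in ATUX, at 46.2, 52.3 and 91 CPM in SMAP and at 30.2, 40.04 and 43.5 CPM in Sorafenib libraries. ATUX was lowest without overlap, and the log2 difference was -2.03 ± 0.33 (SE, edgeR adjusted p = 0.0182) against SMAP and -1.34 ± 0.34 (SE, edgeR adjusted p = 0.0322) against Sorafenib. The call against SMAP was lost without ATUX9D (edgeR adjusted p 0.0647, within 1.64e-08 to 0.0647 over 15 alternatives). The call against Sorafenib was lost without ATUX9D, Sor6G or Sor9H (edgeR adjusted p 0.0956 to 0.127, within 5.69e-06 to 0.127 over 15 alternatives). IFIT5 moved over a narrow range, at 22.5, 24.2 and 24.9 CPM in ATUX, at 33.1, 36.1 and 38.8 CPM in SMAP and at 28.1, 32.5 and 35.9 CPM in Sorafenib libraries, with -0.57 ± 0.11 (adjusted p = 0.025) and -0.42 ± 0.12 (adjusted p = 0.0423). The call against SMAP was lost without ATUX8H, ATUX9D, SMAP8D or SMAP9C (edgeR adjusted p 0.0701 to 0.0762, within 6.17e-09 to 0.0762 over 15 alternatives). The call against Sorafenib was lost with no filter on low counts (adjusted p = 0.0963) and without ATUX8H, ATUX9D, SMAP8D, SMAP9C, SMAP6G, Sor6G or Sor9H (edgeR adjusted p 0.0621 to 0.162, within 9.55e-07 to 0.162 over 15 alternatives). IFIT1 stood at 21.6, 24.1 and 29.3 CPM in ATUX, at 35.3, 46.9 and 84.3 CPM in SMAP and at 31.7, 46 and 52.9 CPM in Sorafenib libraries, and IFIT2 at 12.6, 27.9 and 42 CPM in ATUX, at 44.4, 63.1 and 113 CPM in SMAP and at 59.4, 75 and 90.6 CPM in Sorafenib libraries. Their ATUX libraries lay below all others, but neither was called: the ATUX minus SMAP differences were -1.14 ± 0.33 (SE, edgeR adjusted p = 0.0787) and -1.38 ± 0.51 (SE, edgeR adjusted p = 0.136). Between SMAP and Sorafenib none of the 4 was called, with log2 differences from -0.10 ± 0.49 for IFIT2 to 0.69 ± 0.31 for IFIT3.

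DDX58 (RIG-I) and IFIH1 (MDA5) are helicases that sense viral RNA in the cytosol, and DDX60 is a related helicase. DDX58 stood at 51, 57.4 and 61.1 CPM in ATUX, at 78.1, 85.4 and 119 CPM in SMAP and at 57.2, 69 and 80.6 CPM in Sorafenib libraries and was not called, at -0.71 ± 0.20 (SE, edgeR adjusted p = 0.0668) for ATUX against SMAP. IFIH1 was lower in ATUX than in either other group, at -1.02 ± 0.20 (SE, edgeR adjusted p = 0.028) and -1.18 ± 0.22 (SE, edgeR adjusted p = 0.012). The IFIH1 call against SMAP was lost without ATUX8H, ATUX9D, SMAP8D or SMAP6G (edgeR adjusted p 0.0551 to 0.082, within 3.39e-07 to 0.082 over 15 alternatives). That against Sorafenib was lost without Sor6G (edgeR adjusted p 0.0507, within 6.75e-08 to 0.0507 over 15 alternatives). DDX60 stood at 17.2, 18.8 and 25.2 CPM in ATUX, at 60.9, 71.1 and 79.6 CPM in SMAP and at 37.4, 45.2 and 58.7 CPM in Sorafenib libraries, all groups apart, and was called in all 3, at -1.82 ± 0.18 (SE, edgeR adjusted p = 0.00659) for ATUX against SMAP, -1.24 ± 0.19 (adjusted p = 0.00684) for ATUX against Sorafenib and 0.58 ± 0.17 (adjusted p = 0.0378) for SMAP against Sorafenib. The last call was lost without SMAP8D, SMAP9C or Sor9H (edgeR adjusted p 0.0801 to 0.196, within 1.25e-05 to 0.196 over 15 alternatives). PARP9 and DTX3L, a pair of proteins that work as one complex and whose genes share a start region, and PARP14, a mono-ADP-ribosyl transferase beside them on chromosome 3, were higher in SMAP alone. PARP9 stood at 21.1, 23.8 and 25.5 CPM in ATUX, at 68.7, 75 and 79.97 CPM in SMAP and at 26.3, 26.5 and 28.9 CPM in Sorafenib libraries, with -1.63 ± 0.12 (SE, edgeR adjusted p = 0.0045) for ATUX against SMAP and 1.46 ± 0.12 (SE, edgeR adjusted p = 9.83e-04) for SMAP against Sorafenib. DTX3L gave -1.11 ± 0.11 (adjusted p = 0.00698) and 0.98 ± 0.11 (adjusted p = 0.00217), and PARP14 -1.28 ± 0.14 (adjusted p = 0.00756) and 0.84 ± 0.13 (adjusted p = 0.00525). All 6 calls were made under the 15 alternatives, and none of the 3 genes was called between ATUX and Sorafenib.

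Of the transcription factors, STAT2 was highest in Sorafenib. It stood at 40.8, 44.2 and 45.3 CPM in ATUX, at 38.7, 43 and 51.9 CPM in SMAP and at 56.7, 61.2 and 63.3 CPM in Sorafenib libraries. ATUX and SMAP overlapped, with a log2 difference of 0.00 ± 0.11 (SE, edgeR adjusted p = 0.99), and Sorafenib libraries lay above both, at -0.45 ± 0.12 (SE, edgeR adjusted p = 0.0321) for ATUX and -0.46 ± 0.10 (SE, edgeR adjusted p = 0.0173) for SMAP. The call for ATUX was lost with no filter on low counts (adjusted p = 0.0577) and without ATUX8H, ATUX9D, SMAP8D, Sor6G or Sor9H (edgeR adjusted p 0.0558 to 0.123, within 5e-07 to 0.123 over 15 alternatives). The call for SMAP was lost without SMAP8D, Sor6G or Sor9H (edgeR adjusted p 0.0592 to 0.0934, within 1.67e-07 to 0.0934 over 15 alternatives). IRF9, the DNA-binding part of ISGF3, stood between 1.03 and 2.28 CPM and was not called in any of the 3 (-0.26 ± 0.27 (adjusted p = 0.567) for ATUX against SMAP). Of its exon bases 48.4% are shared with AL136295.5 on the same strand, so its count may be too low. IRF1, a factor that interferon-gamma induces, stood at 26.8, 44.4 and 78.7 CPM in ATUX, at 91, 99.1 and 135 CPM in SMAP and at 24, 29.96 and 31.4 CPM in Sorafenib libraries. It was called higher in SMAP than in Sorafenib under all 15 alternatives, at 1.91 ± 0.30 (SE, edgeR adjusted p = 0.0054), and was not called for ATUX against SMAP, at -1.17 ± 0.29 (SE, edgeR adjusted p = 0.0518). IRF7, which amplifies type I interferon production, stood at 8.65, 11.9 and 13.1 CPM in ATUX, at 17.6, 19.2 and 21.9 CPM in SMAP and at 11.9, 16.1 and 18 CPM in Sorafenib libraries, with -0.75 ± 0.16 (SE, edgeR adjusted p = 0.0362) for ATUX against SMAP. The call was lost without ATUX8H, ATUX9D, SMAP8D, SMAP9C or SMAP6G (edgeR adjusted p 0.0635 to 0.112, within 5.02e-07 to 0.112 over 15 alternatives).

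Clones grown out under the same drug also differed in these genes. The p-values here come from an edgeR fit of the 21 libraries with the clone as factor and measure only the spread between libraries of a clone, since the labels do not say that these were separate cultures. SMAP8D stood above the other SMAP clones in most members. Against SMAP9C, 23 members were called higher and 8 lower, where 17.3% of all 16504 genes were higher and 17.9% lower (35.1% in either direction). Against SMAP6G, 27 were higher and 3 lower, where 17.2% were higher and 17.6% lower (34.8% in either direction). Between SMAP9C and SMAP6G, 12 were higher and 8 lower, where 20% were higher and 19.7% lower (39.7% in either direction). For this last pair the share of members called, 43.5%, was near that of all genes. The median log2 differences were 0.40, 0.30 and 0.01, and that of all genes was -0.01 in each. Leaving out a library gave 27 to 30, 26 to 30 and 14 to 18 calls.

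MX1, MX2 and RSAD2 led the genes higher in SMAP8D than in SMAP9C. MX1 was at 22, 25.3 and 20.5 CPM in the SMAP8D libraries, 3.69, 4.25 and 3.16 in SMAP9C and 6.29, 7.35 and 7.67 in SMAP6G. SMAP8D lay above both other clones without overlap. The log2 difference was 2.60 ± 0.18 (SE, edgeR adjusted p = 1.17e-10) against SMAP9C and 1.67 ± 0.17 (SE, edgeR adjusted p = 5.28e-08) against SMAP6G. MX2 was at 50.8, 55.4 and 53.4 CPM in SMAP8D, 47.7, 49 and 46.4 in SMAP6G and 12.7, 8.54 and 10.2 in SMAP9C. Here SMAP9C alone was low, with 2.35 ± 0.13 (SE, edgeR adjusted p = 1.35e-11) for SMAP8D against SMAP9C, -2.19 ± 0.13 (SE, edgeR adjusted p = 2.5e-11) for SMAP9C against SMAP6G and 0.16 ± 0.11 (adjusted p = 0.307) for SMAP8D against SMAP6G. RSAD2 was at 4.26, 3.86 and 3.81 CPM in SMAP8D, 0.687, 0.966 and 1.12 in SMAP9C and 0.848, 1.23 and 1.56 in SMAP6G. It was the SMAP8D clone that stood out, at 2.11 ± 0.34 (SE, edgeR adjusted p = 2.4e-05) and 1.71 ± 0.33 (SE, edgeR adjusted p = 2.18e-04). OASL was likewise highest in SMAP8D, with mean levels of 67.1 ± 2.2, 26.4 ± 1.51 and 22 ± 2.34 CPM (SD, n = 3). Mean levels of IFIT1 were 79.1 ± 4.67, 37.3 ± 3.09 and 47.2 ± 1.45 CPM, and of ISG15 44.1 ± 2.36, 28.3 ± 2.31 and 32.5 ± 1.58 CPM, each called higher in SMAP8D in both comparisons.

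A smaller set went the other way. IFITM1 was at 13.6, 11.3 and 12.1 CPM in SMAP8D, 22.8, 23.8 and 20.9 in SMAP9C and 29.9, 35 and 30.4 in SMAP6G. No libraries of these 3 clones overlapped, and SMAP8D was lowest, at -0.87 ± 0.13 (SE, edgeR adjusted p = 1.1e-05) and -1.36 ± 0.13 (SE, edgeR adjusted p = 1.37e-08). GBP1 and GBP2 were lowest in SMAP8D too. GBP2 had means of 12.7 ± 0.403, 27.8 ± 1.73 and 18.6 ± 0.194 CPM, with -1.13 ± 0.10 (SE, edgeR adjusted p = 2.77e-09) for SMAP8D against SMAP9C. GBP1 had means of 20.9 ± 1.49, 30.5 ± 2.93 and 35 ± 1.4 CPM, with -0.75 ± 0.12 (SE, edgeR adjusted p = 2.56e-05) for SMAP8D against SMAP6G. IRF1 had means of 100.3 ± 2.05, 134 ± 0.67 and 95.4 ± 3.74 CPM and was called higher in SMAP9C than in either other clone.

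Between SMAP9C and SMAP6G, TRIM22, OAS2 and HERC5 led the genes higher in SMAP9C, and MX2, MX1 and BST2 those lower. TRIM22 was at 30.2, 27.1 and 28.2 CPM in SMAP9C and 8.07, 9.77 and 10.1 in SMAP6G. The libraries did not overlap, and the log2 difference was 1.62 ± 0.11 (SE, edgeR adjusted p = 7.13e-11). OAS2 was at 23.5, 23.5 and 24.9 CPM in SMAP9C and 9.81, 10.3 and 12.2 in SMAP6G, with 1.15 ± 0.11 (SE, edgeR adjusted p = 2.01e-08), and stood higher still in SMAP8D at 37.8, 38.8 and 36.3 CPM. SMAP6G was thus the low clone for OAS2. BST2 was at 20.1, 18.2 and 17 CPM in SMAP9C, below 31.8, 35.7 and 33.9 in SMAP6G and 39.5, 37.7 and 37.1 in SMAP8D, with -0.87 ± 0.15 (SE, edgeR adjusted p = 6.88e-05) for SMAP9C against SMAP6G.

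The ATUX clones, both low in most members, differed from each other in opposite directions by gene. Of the 46 members 12 were called higher in ATUX8H and 16 lower, where 23.1% of all genes were higher and 23% lower (46.1% in either direction), and the median log2 difference was 0.00. In either direction 60.9% of the members were called, but the share called higher was near that of all genes. OASL was at 14, 13.5 and 16.9 CPM in ATUX8H and 4.07, 3.39 and 2.38 in ATUX9D. GBP2 was at 8.19, 9.14 and 7.35 CPM in ATUX8H and 1.51, 2.31 and 2.56 in ATUX9D. Neither gene's libraries overlapped, and the log2 differences were 2.16 ± 0.17 (SE, edgeR adjusted p = 1.01e-09) and 1.95 ± 0.13 (SE, edgeR adjusted p = 1.6e-11). HERC5, at 1.47 ± 0.21 (SE, edgeR adjusted p = 4.11e-06), and IFIT2, with means of 39.9 ± 2.09 and 14.9 ± 2.85 CPM (SD, n = 3), were likewise higher in ATUX8H. In contrast PSMB9 was at 16.6, 14.9 and 14.7 CPM in ATUX8H and 30.4, 27.5 and 44 in ATUX9D, and XAF1 at 1.49, 1.8 and 1.97 and 2.27, 3.55 and 5.83 CPM. Both lay below in every ATUX8H library, at -1.14 ± 0.13 (SE, edgeR adjusted p = 3.84e-07) and -1.13 ± 0.25 (SE, edgeR adjusted p = 0.00105). TRIM22, IRF1, IFITM3 and UBE2L6 were lower in ATUX8H as well, at -1.09 ± 0.21 (adjusted p = 1.66e-04), -0.90 ± 0.13 (adjusted p = 2.71e-05), -0.79 ± 0.08 (adjusted p = 2.93e-08) and -0.97 ± 0.09 (adjusted p = 1.68e-09). The total of 28 calls was 25 without the third ATUX8H library, 28 without the third ATUX9D library, and 18 when only these 6 libraries were fitted. OASL, GBP2, HERC5, PSMB9, XAF1 and TRIM22 were called under all 12 alternatives.

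Between the Sorafenib clones, 16 members were called higher in Sor6G and 5 lower, where 16% of all genes were higher and 17.7% lower (33.7% in either direction), and the median log2 difference was 0.19, beside -0.01 for all genes. MX2 was at 17.8, 14.1 and 17.4 CPM in Sor6G and 1.89, 2.42 and 1.93 in Sor9H. It showed the largest difference of any member between these clones, without overlap, at 2.98 ± 0.17 (SE, edgeR adjusted p = 4.02e-11). HERC5 was at 27.1, 18.2 and 20.3 and 9.95, 9.06 and 11.5 CPM, and MX1 at 2.88, 1.92 and 2.09 and 0.99, 0.924 and 1.45 CPM, both higher in every Sor6G library, at 1.11 ± 0.14 (SE, edgeR adjusted p = 1.37e-06) and 1.04 ± 0.26 (SE, edgeR adjusted p = 0.00291). GBP2 went the other way, at 9.72, 10.6 and 11.2 CPM in Sor6G and 18.9, 21.4 and 20.8 in Sor9H, with -0.96 ± 0.10 (SE, edgeR adjusted p = 6.08e-08). OAS2 and OAS1 were also lower in Sor6G, at -0.50 ± 0.12 (SE, edgeR adjusted p = 0.00171) and -0.47 ± 0.17 (SE, edgeR adjusted p = 0.0351). The OAS1 call was lost without replicate 1 or 3 of Sor6G, without replicate 2 or 3 of Sor9H (edgeR adjusted p 0.0666 to 0.225) and when only these 6 libraries were fitted (0.0521, within 4.31e-05 to 0.225 over 12 alternatives). Without the third Sor9H library 17 members were called in place of 21, and leaving out any library gave 14 to 18. MX2, HERC5, MX1, GBP2 and OAS2 were called under all 12 alternatives.

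**Figure D4:**
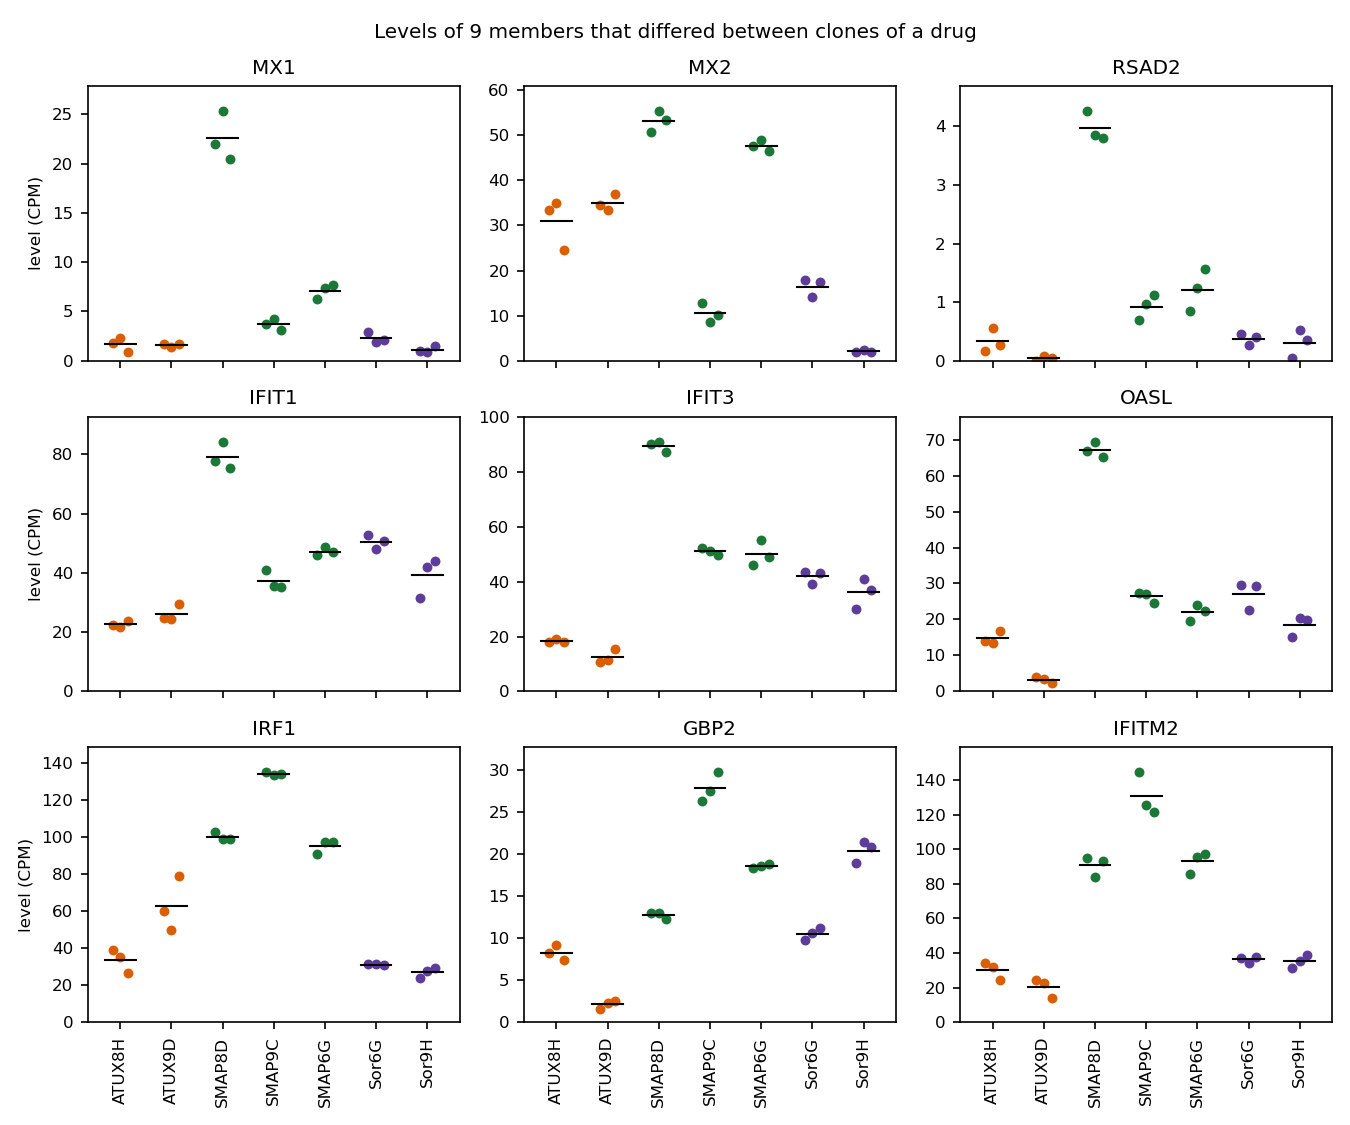
CPM of MX1, MX2, RSAD2, IFIT1, IFIT3, OASL, IRF1, GBP2 and IFITM2 in each library (points, by clone, axis from 0), with a line at each clone's mean. SMAP8D is the highest clone for MX1, MX2, RSAD2, IFIT1, IFIT3 and OASL but the lowest SMAP clone for GBP2 and IFITM2, and MX2 is low in SMAP9C and Sor9H.

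Transcripts of the interferons themselves were close to absent. Of 21 ligand genes listed, 14 had 0 counts in all 21 libraries, and the 6 others besides IFNE, which were IFNA2, IFNA5, IFNB1, IFNL1, IFNL2 and IFNL3, summed to 70 counts over all libraries, with at most 6 in a library. IFNG had 0. A count of 0 in a library allows up to 3 counts, or 0.108 to 0.143 CPM by library. IFNE, an epithelial type I interferon, was the only ligand to pass the filter. It had mean levels of 0.585, 0.709 and 0.579 CPM in ATUX, SMAP and Sorafenib clones and was not called, at -0.27 ± 0.40 (SE, edgeR adjusted p = 0.703) for ATUX against SMAP. Most type I interferon genes lie on the short arm of chromosome 9 beside CDKN2A, a tumour suppressor locus that is often lost in carcinoma of the pancreas. CDKN2A and CDKN2B had 0 counts in all libraries, and MTAP next to them had 31 in total. Other listed genes of the region were expressed, KLHL9 with 16206 counts in total, FOCAD with 13024, HACD4 with 1546 and DMRTA1 with 1307. DMRTA1 was called higher in ATUX than in Sorafenib (edgeR adjusted p = 0.0199), a call lost under 3 of 15 alternatives. Whether the interferon genes are lost in these clones was not tested. MLLT3 on the same arm was lower in SMAP than in either other group, at 5.64 ± 0.86 (SE, edgeR adjusted p = 0.0158) for ATUX against SMAP and -5.32 ± 0.85 (SE, edgeR adjusted p = 0.00571) for SMAP against Sorafenib, with mean levels of 9.03, 0.179 and 7.41 CPM. The former call was lost without SMAP9C (edgeR adjusted p 0.0636, within 1.96e-12 to 0.0636 over 15 alternatives).

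Receptors and kinases of the pathway gave no calls between ATUX and SMAP. Of 9 listed, 0 were called by edgeR (1 had an unadjusted p below 0.05, and 10.3% of all genes were called in either direction). Mean levels over clones are given in the order ATUX, SMAP, Sorafenib. IFNAR1 stood at 60.6, 62.4 and 71.2 CPM, IFNAR2 at 15.1, 16.6 and 25.1 CPM, JAK1 at 380.4, 444 and 207 CPM and TYK2 at 58.5, 70.6 and 66.9 CPM. The ATUX minus SMAP differences were -0.02 ± 0.09 (adjusted p = 0.923), -0.12 ± 0.14 (adjusted p = 0.627), -0.19 ± 0.22 (adjusted p = 0.606) and -0.25 ± 0.15 (adjusted p = 0.323). The receptor of type II interferon was expressed as well, with IFNGR1 at 53.4, 67.4 and 64.6 CPM and IFNGR2 at 68.2, 57.7 and 128 CPM, and its kinase JAK2 at 8.59, 9.7 and 11.3 CPM. IFNLR1, the receptor chain of the lambda interferons, was at 2.73, 2.49 and 3.05 CPM in ATUX8H, at 0.252, 0.424 and 0.314 CPM in ATUX9D and at most 0.365 CPM in each other library. It was not called (3.32 ± 0.87 (adjusted p = 0.0606) for ATUX against SMAP), and its partner chain IL10RB stood at 15.1, 18.3 and 19.6 CPM. Sorafenib clones were called against ATUX and against SMAP in 3 of the 9, a share near those of all genes (25.8% and 34.5% in either direction). JAK1 was lower there, at 0.89 ± 0.24 (SE, edgeR adjusted p = 0.0369) for ATUX and 1.09 ± 0.22 (SE, edgeR adjusted p = 0.0122) for SMAP, and IFNGR2 higher, at -0.90 ± 0.13 (adjusted p = 0.00682) and -1.17 ± 0.12 (adjusted p = 0.00159). IFNAR2 was higher too, at -0.72 ± 0.15 (adjusted p = 0.0183) and -0.61 ± 0.14 (adjusted p = 0.0167). The JAK1 call for ATUX was lost without ATUX9D, SMAP8D, SMAP9C, SMAP6G, Sor6G or Sor9H (edgeR adjusted p 0.0557 to 0.158, within 3.57e-06 to 0.158 over 15 alternatives). That for SMAP was lost without Sor6G or Sor9H (edgeR adjusted p 0.0639 to 0.0782, within 4.26e-08 to 0.0782 over 15 alternatives). The IFNAR2 call for ATUX was lost without ATUX8H, Sor6G or Sor9H (edgeR adjusted p 0.0572 to 0.0809, within 8.66e-09 to 0.0809 over 15 alternatives). That for SMAP was lost without SMAP8D, SMAP9C, Sor6G or Sor9H (edgeR adjusted p 0.0503 to 0.0996, within 2.87e-08 to 0.0996 over 15 alternatives). Other genes cover 44.2% of the exon bases of IFNAR2.

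Of 5 further STAT and IRF factors, which are STAT3, IRF2, IRF3, IRF5 and IRF8, 4 were tested, and 0 were called by edgeR between ATUX and SMAP (1 had an unadjusted p below 0.05). STAT3 and IRF5 were higher in ATUX and in SMAP than in Sorafenib (13.3% and 16.8% of all genes were higher), STAT3 at 1.21 ± 0.20 (adjusted p = 0.00872) and 1.28 ± 0.19 (adjusted p = 0.00398) and IRF5 at 2.80 ± 0.77 (adjusted p = 0.0398) and 3.16 ± 0.75 (adjusted p = 0.0194). The STAT3 call for ATUX was lost without Sor6G or Sor9H (edgeR adjusted p 0.0512 to 0.0522, within 2.44e-09 to 0.0522 over 15 alternatives). The IRF5 call for ATUX was lost without ATUX8H, SMAP8D, SMAP9C, SMAP6G, Sor6G or Sor9H (edgeR adjusted p 0.0522 to 0.157, within 1.17e-05 to 0.157 over 15 alternatives). That for SMAP was lost without Sor9H (edgeR adjusted p 0.094, within 1.03e-06 to 0.094 over 15 alternatives). Of 7 negative regulators 0 were called by edgeR between ATUX and SMAP (3 had an unadjusted p below 0.05), 2 were lower in ATUX than in Sorafenib, and SMAP against Sorafenib gave 2 higher and 1 lower, where 10.3%, 25.8% and 34.5% of all genes were called in either direction. SOCS1, which inhibits JAK kinases and is induced by interferon, stood at 2.4, 10.2 and 1.74 CPM, with -2.08 ± 0.51 (SE, edgeR adjusted p = 0.0512) for ATUX against SMAP and, called, 2.54 ± 0.53 (SE, edgeR adjusted p = 0.0125) for SMAP against Sorafenib. PIAS1, a SUMO ligase, was higher in SMAP than in Sorafenib, at 0.59 ± 0.12 (adjusted p = 0.0107). SIAH1, a ubiquitin ligase, was lower in SMAP, at -0.97 ± 0.16 (adjusted p = 0.00551), and in ATUX, at -0.83 ± 0.18 (adjusted p = 0.0184), than in Sorafenib. PTPN2, a phosphatase that acts on JAK kinases, was lower in ATUX than in Sorafenib, at -0.47 ± 0.12 (adjusted p = 0.0298). The PIAS1 call was lost without Sor6G (edgeR adjusted p 0.0665, within 4.53e-08 to 0.0665 over 15 alternatives). The SIAH1 call for ATUX was lost without ATUX8H or Sor6G (edgeR adjusted p 0.0599 to 0.0779, within 5.43e-07 to 0.0779 over 15 alternatives). The PTPN2 call was lost with no filter on low counts (adjusted p = 0.0541) and without ATUX8H, ATUX9D, Sor6G or Sor9H (edgeR adjusted p 0.0615 to 0.118, within 6.32e-07 to 0.118 over 15 alternatives).

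**Figure D5:**
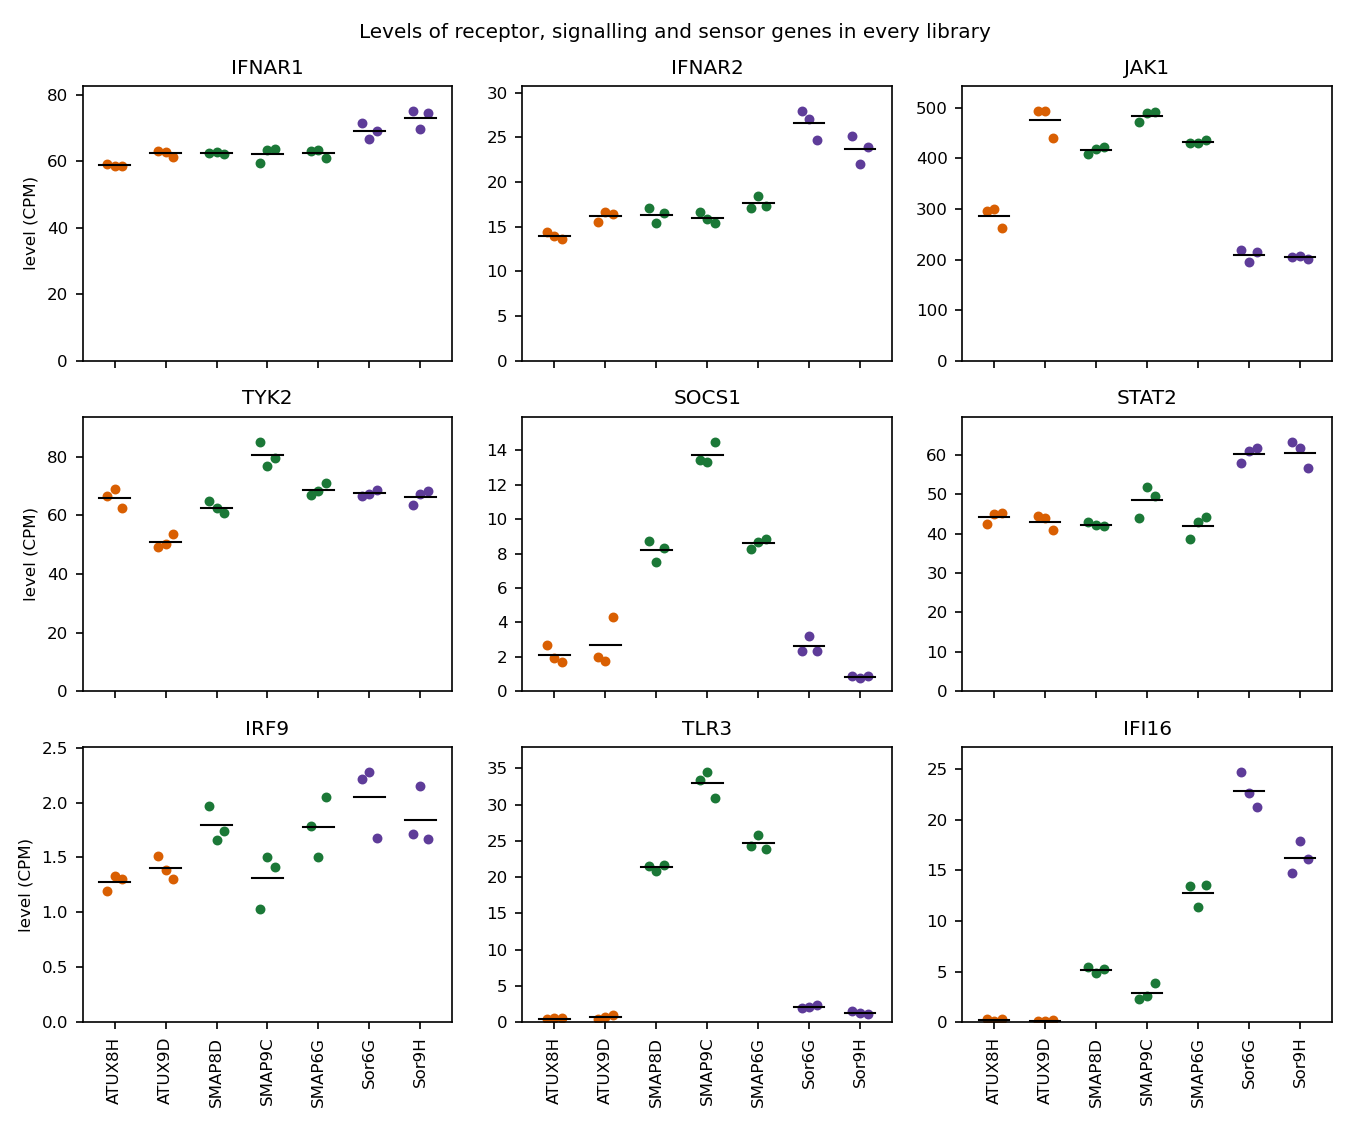
CPM of IFNAR1, IFNAR2, JAK1, TYK2, SOCS1, STAT2, IRF9, TLR3 and IFI16 in each library (points, by clone), with a line at each clone's mean. The receptor, kinase, STAT2 and IRF9 panels show ATUX and SMAP libraries at overlapping levels, whereas SMAP libraries lie above all others for SOCS1 and TLR3, which stands at 20.9 to 34.5 CPM in SMAP and at most 2.29 CPM in the other libraries.

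Genes of nucleic acid sensing, which sets off interferon production, were called more often than all genes between ATUX and SMAP. Of 14 tested, 4 were lower in ATUX than in SMAP and 0 higher, where 5.06% of all genes were lower and 5.27% higher. Against Sorafenib 4 were lower and 1 higher in ATUX (12.5% and 13.3% of all genes), and 2 were higher and 1 lower in SMAP (16.8% and 17.7%). In either direction 35.7% were called for ATUX and 21.4% for SMAP, beside 25.8% and 34.5% of all genes. The share for SMAP against Sorafenib was thus below that of all genes. TLR3, the endosomal receptor for double-stranded RNA, stood at 0.384, 0.526 and 0.987 CPM in ATUX, at 20.9, 24.3 and 34.5 CPM in SMAP and at 1.14, 1.75 and 2.29 CPM in Sorafenib libraries. SMAP libraries lay far above all others, at -5.41 ± 0.40 (SE, edgeR adjusted p = 0.0045) for ATUX against SMAP and 3.94 ± 0.37 (SE, edgeR adjusted p = 0.00125) for SMAP against Sorafenib. IFI16, a DNA sensor, stood at 0.084, 0.189 and 0.314 CPM in ATUX, at 2.32, 5.27 and 13.6 CPM in SMAP and at 14.7, 19.6 and 24.7 CPM in Sorafenib libraries. ATUX libraries lay below all others, at -5.09 ± 0.80 (SE, edgeR adjusted p = 0.017) against SMAP and -6.60 ± 0.86 (SE, edgeR adjusted p = 0.00526) against Sorafenib. The IFI16 call against SMAP was lost without ATUX8H or ATUX9D (edgeR adjusted p 0.0588 to 0.0709, within 8.72e-14 to 0.0709 over 15 alternatives). TRIM25, a ubiquitin ligase that helps to activate RIG-I, followed the order ATUX, SMAP, Sorafenib with mean levels of 79.3, 173 and 281 CPM and was called in all 3, at -1.10 ± 0.16 (SE, edgeR adjusted p = 0.0139), -1.82 ± 0.18 (adjusted p = 0.00279) and -0.72 ± 0.16 (adjusted p = 0.0148). The last call was lost without Sor9H (edgeR adjusted p 0.103, within 9.41e-07 to 0.103 over 15 alternatives). DHX58 (LGP2), a relative of RIG-I, gave -0.90 ± 0.21 (adjusted p = 0.0437) for ATUX against SMAP. This call was lost without ATUX8H, ATUX9D, SMAP8D, SMAP9C, Sor6G or Sor9H (edgeR adjusted p 0.0629 to 0.133, within 8.45e-06 to 0.133 over 15 alternatives). TMEM173 (STING), the adaptor of cytosolic DNA sensing, was lower in ATUX than in Sorafenib, at -1.71 ± 0.40 (SE, edgeR adjusted p = 0.0251). The call was lost without ATUX9D or Sor9H (edgeR adjusted p 0.0947 to 0.101, within 1.46e-06 to 0.101 over 15 alternatives). SAMHD1, which depletes nucleotides, was lower in Sorafenib than in ATUX, at 1.30 ± 0.23 (adjusted p = 0.0103), and than in SMAP, at 1.59 ± 0.21 (adjusted p = 0.00322). The call for ATUX was lost without Sor9H (edgeR adjusted p 0.0657, within 1.69e-08 to 0.0657 over 15 alternatives).

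A second list of 46 further interferon-stimulated genes, 40 of them tested, gave 19 calls lower and 0 higher for ATUX against SMAP (5.06% and 5.27% of all genes), 12 lower and 4 higher for ATUX against Sorafenib (12.5% and 13.3%), and 21 higher and 2 lower for SMAP against Sorafenib (16.8% and 17.7%). C1R, a complement protease, gave -3.69 ± 0.37 (SE, edgeR adjusted p = 0.00694) for ATUX against SMAP, GBP4 -3.32 ± 0.48 (SE, edgeR adjusted p = 0.0137), and RTP4, which restrains replication of RNA viruses, -3.03 ± 0.25 (SE, edgeR adjusted p = 0.00619). The GBP4 call was lost without ATUX8H or ATUX9D (edgeR adjusted p 0.0555 to 0.0626, within 1.31e-13 to 0.0626 over 15 alternatives). C1R and RTP4 were called under all 15 alternatives. EPSTI1 gave -3.03 ± 0.68 (adjusted p = 0.0395) in the same comparison. This call was lost without ATUX9D, SMAP8D, SMAP9C, SMAP6G, Sor6G or Sor9H (edgeR adjusted p 0.055 to 0.0937, within 2.88e-06 to 0.0937 over 15 alternatives). WARS, a tryptophanyl-tRNA synthetase that interferon-gamma induces, was one of the 2 lower in SMAP than in Sorafenib, at -1.76 ± 0.20 (SE, edgeR adjusted p = 0.00218), with mean levels of 88.4, 86.4 and 289 CPM. The chemokines CXCL9, CXCL10 and CXCL11 and the enzyme IDO1, classic targets of interferon-gamma, did not pass the filter on low counts.

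Genes that lie near the members on the chromosome were also examined. For each member, the median log2 difference of the other tested genes within 1 Mb was taken, and the median of these over the 46 members was 0.09 for ATUX against SMAP, -0.03 for ATUX against Sorafenib and 0.04 for SMAP against Sorafenib. The neighbours of BST2 on chromosome 19 had a median of -1.22 for ATUX against SMAP and -1.04 for ATUX against Sorafenib, the lowest of the 46 in each, where BST2 itself gave -5.50 and -1.18. The highest were those of RSAD2 and CMPK2, with 2 neighbours tested, at 2.33 and 2.97. For ATUX against Sorafenib the neighbours of IFI35 had a median of 0.80, beside 1.04 for IFI35, and for SMAP against Sorafenib those of IRF1 had 1.11, beside 1.91 for IRF1. Whether these regions move with the members was not tested. Markers of other cells moved with the drug groups in part. Immune cell markers summed to 2.15 to 4.31 CPM in ATUX, 1.93 to 3.08 CPM in SMAP and 0.990 to 1.74 CPM in Sorafenib libraries, with 2 of 8, CD3E and MS4A1, at 0 counts. Fibroblast and endothelial markers summed to 20.03 to 46.5, 48.0 to 183 and 12.7 to 17.9 CPM, none of the 7 at 0. Of these COL1A1 stood at 19.8, 38.7 and 46.2 CPM in ATUX, at 47.2, 153 and 172 CPM in SMAP and at 9.58, 11.6 and 15.1 CPM in Sorafenib libraries, while PDGFRA went the other way, at 0, 0.0423 and 0.0859 CPM in ATUX, at 0, 0.0386 and 0.0973 CPM in SMAP and at 1.02, 3.33 and 4.62 CPM in Sorafenib libraries. The part of these differences, and of the duct marker sums given above, in the members' values was not tested.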

How the data were processed

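Poly-A RNA-seq was measured in 21 libraries. The authors deposited raw read counts for 58233 genes, with each gene's position, length and GC percent. RNA (500 ng) entered a TruSeq Stranded mRNA kit, per the labels' protocols. The submitters' processing notes name STAR 2.5.2b, featureCounts 1.5.3, cutadapt 1.15, SAMtools 1.5, Bowtie2 2.3.3.1 and the build GRCh38. The annotation release and strand setting of the counting are not given in the sources, so overlapping, antisense and near-identical genes (the IFITM and GBP families) are uncertain.

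Columns were matched to samples by library name, with 0 columns of other samples. For the drugs, each clone's 3 libraries were added up and the 7 sums were fitted by edgeR 4.0.16 under R 4.3.3 (TMM, filterByExpr, robust quasi-likelihood, drug as the factor, 18613 genes). For the clones, the 21 libraries were fitted with the clone as the factor (16504 genes). Calls are Benjamini-Hochberg adjusted p below 0.05 over all genes tested, and SE come from the quasi-likelihood F. Separate cultures are not stated for a clone's libraries, so p-values between clones may measure technical spread, and those between drugs rest on 2 or 3 picked clones each. The fits were tested on simulated counts with 200 changed genes. Alternatives used RLE factors, no filter, DESeq2 1.42.0, limma 3.58.1, fits of single libraries with and without the replicate number, and left-out clones or libraries. The fit without the third Sor9H library was added after seeing the data. Deviations from the clone means correlated between same-numbered libraries by over 0.1 in all 3 pairs for ATUX8H and ATUX9D (0.175, 0.22 and 0.28) and for Sor6G and Sor9H (0.168, 0.117 and 0.147). No other pair of clones had all 3 over 0.1. Single values elsewhere did pass it, up to 0.164 for the third libraries of ATUX9D and Sor9H, and 10 of all 63 were over 0.1. For ATUX8H with ATUX9D and for Sor6G with Sor9H the numbers pair the libraries by these data, since the labels name no shared batch.

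Members given in full are, per drug comparison and direction, the 6 called members of largest difference (3 for clones) with a mean of at least 1 CPM, plus fixed pathway genes. Other genes were named after their values were seen, and 1 listed signalling gene is not reported here. The members and all lists were chosen with earlier results of these data known. Exon overlaps come from GENCODE v29, where 45 of the 46 members have the deposited position. Intervals and floors cover counting error only.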

Additional observations from a re-analysis of the deposited data

How the results depend on the processing

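No call turned into a call in the opposite direction. Of 1887 alternative values for 133 gene results, 1675 lay on the same side of the threshold, 137 lost a call and 75 gained one. The signs of differences that were not called were not followed. The counts of members called moved most with the unit of replication. When the 21 libraries were fitted in place of 7 clone sums, the counts rose to 42 for ATUX against SMAP (from 27), 38 for ATUX against Sorafenib (from 16) and 34 for SMAP against Sorafenib (from 20), and were 42, 38 and 34 with the replicate block added. Such fits count libraries of a clone as replicates of a drug, which they are not. Their calls and small p-values therefore say little about the drugs. A limma-voom fit in which clones were a random effect gave 25 for ATUX against Sorafenib. Leaving out a clone gave 15 to 22, 8 to 18 and 11 to 21. For ATUX8H against ATUX9D, fitting only these libraries gave 18 in place of 28. Leaving out a library gave 24 to 29 for ATUX8H against ATUX9D, 14 to 18 for Sor6G against Sor9H, 27 to 30, 26 to 30 and 14 to 18 for the SMAP pairs. These moves come with fewer or more units per group. The shares of all genes called under the alternatives are not given here, so the moves are not read as results about the members.

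With the replicate block on all 21 libraries the clone counts were 28, 21, 31, 30 and 22. With the block and only the libraries of the clone pairs that the numbers pair, chosen after seeing the data, they were 22 for ATUX8H against ATUX9D and 23 for Sor6G against Sor9H. Neither blocked fit changed the call of a member named between these clones. Genes under about 1 CPM, such as IFI44L, RSAD2 and IFI27, rest on few counts, and with 2 or 3 clones a drug a difference that was not called is not shown to be absent.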

Other observations

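The third ATUX libraries, which stood apart from the others of their clone, moved the members in both directions in ATUX8H and mostly upward in ATUX9D. Set against the mean of the other libraries of the clone on the scale of log2(CPM + 0.5), the third ATUX8H library had a median difference over the 46 members of -0.05, with 17 members above and 20 below the range of the others. The third ATUX9D library had a median of 0.25, with 30 above and 9 below. The same counts were not taken over all genes, so whether these shifts are particular to the members was not tested. Over single members the differences ran from -0.88 to 0.61 in ATUX8H and from -0.71 to 0.89 in ATUX9D.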
